A study of Mus musculus with 64 samples.

Results

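The C-type lectin receptors examined here are 9 genes, *Clec4e*, *Clec4d*, *Clec4n*, *Clec4a1*, *Clec4a2*, *Clec4a3*, *Clec5a*, *Clec7a* and *Clec12a*, taken by symbol from the 55487 genes counted in murine bone marrow-derived macrophages (BMMs). All 9 were among the 14537 genes that passed the filter on low counts. The 64 RNA-seq libraries form 16 groups of 4. *Ahr+/+* cells came from wild-type C57BL/6JRj mice and *Ahr-/-* cells from C57BL/6 mice without a functional aryl hydrocarbon receptor (AhR), which had been backcrossed in-house to the wild-type strain. The wild-type mice were female, all mice were 8 to 12 weeks old, the deletion is present in the whole animal, and the study used 4 mice per genotype. BMMs were grown from bone marrow with medium of L929 cells as the source of macrophage colony-stimulating factor, were given 1 µM benzo[a]pyrene (BaP), 10 µM indole-3-carbinol (I3C) or 0.01% DMSO for 6 h, and were then activated with heat-killed bacteria, *Salmonella enterica* of the serovar Enteritidis, abbreviated hk S.E., over a period of either 3 h or 20 h. BaP is a high-affinity environmental ligand of the AhR and I3C a dietary ligand of lower affinity. At each time and in each genotype a further group received DMSO and no hk S.E., and is called unactivated below.

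C-type lectin receptors are transmembrane proteins of myeloid cells that bind carbohydrates, glycolipids or ligands from damaged cells through a C-type lectin-like domain. Activating members signal through immunoreceptor tyrosine-based activation motifs, carried by an adapter such as FcRγ (*Fcer1g*) or DAP12 (*Tyrobp*) or by their own tail, to the kinase Syk and the Card9-Bcl10-Malt1 complex. Inhibitory members carry an inhibitory tyrosine motif that recruits phosphatases such as Shp1 (*Ptpn6*). Among the activating members, *Clec4e* encodes Mincle, which binds mycobacterial glycolipid. *Clec4d* encodes MCL, which pairs with Mincle. *Clec4n* encodes Dectin-2, a receptor for fungal mannan, *Clec7a* encodes Dectin-1, the receptor for fungal beta-glucan, and *Clec5a* encodes the DAP12-coupled MDL-1. *Clec4a2* encodes the inhibitory receptor DCIR, *Clec4a1* and *Clec4a3* encode its close relatives, and *Clec12a* encodes the inhibitory receptor MICL.

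All 9 genes lie on mouse chromosome 6 in GRCm38. *Clec4a1*, *Clec4a3*, *Clec4a2*, *Clec4n*, *Clec4d* and *Clec4e* form a cluster between positions 122921848 and 123289870. *Clec4d* (chr6:123262111-123275265, plus strand) and *Clec4e* (chr6:123281789-123289870, minus strand) face each other with 6523 bp between them. *Clec12a* (chr6:129342691-129365303) and *Clec7a* (chr6:129461591-129472779) are neighbours further along, and *Clec5a* (chr6:40574894-40585821) stands apart from both sites. The only other annotated gene within the span of a member is a processed pseudogene inside *Clec4a2*, on the same strand.

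The 250 bases before the start annotated in RefSeq are shown for *Clec4e*, *Clec4d*, *Clec5a* and *Clec7a*. *Clec4e* and *Clec4d* are the neighbours that rose with hk S.E., and *Clec7a* fell. *Clec5a* was called between the genotypes with hk S.E. at 20 h only, and not in every fit. The sequences are those of RefSeq for GRCm38.p6, written 5′ to 3′ along the gene's strand. This start can differ from the gene positions given above, and the last bases of the *Clec5a* window lie within the span given there. *Clec7a* had 2 entries, of which 1 is shown. Capitals mark matches, on either strand, to the AhR core GCGTG, the AP-1 site TGANTCA, the kappaB site GGGNNTTCC, the C/EBP site TTGCNNAA or the PU.1 core GAGGAA.
Clec4e, chr6:123289872-123290121, minus strand: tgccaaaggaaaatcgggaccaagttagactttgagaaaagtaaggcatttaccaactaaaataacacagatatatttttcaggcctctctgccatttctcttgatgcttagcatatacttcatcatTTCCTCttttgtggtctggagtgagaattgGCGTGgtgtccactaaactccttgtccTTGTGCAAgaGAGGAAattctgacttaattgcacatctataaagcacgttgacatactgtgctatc
Clec4d, chr6:123261857-123262106, plus strand: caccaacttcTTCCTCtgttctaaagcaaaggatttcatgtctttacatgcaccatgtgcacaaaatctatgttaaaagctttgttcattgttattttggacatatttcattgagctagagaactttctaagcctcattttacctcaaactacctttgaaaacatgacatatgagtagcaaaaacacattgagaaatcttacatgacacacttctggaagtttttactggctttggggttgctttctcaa
Clec5a, chr6:40585806-40586055, minus strand: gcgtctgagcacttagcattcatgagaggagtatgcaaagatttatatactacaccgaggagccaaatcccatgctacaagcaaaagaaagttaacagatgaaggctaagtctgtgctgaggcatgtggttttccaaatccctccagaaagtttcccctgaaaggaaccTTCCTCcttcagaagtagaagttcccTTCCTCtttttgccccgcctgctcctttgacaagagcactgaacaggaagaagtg
Clec7a, chr6:129472780-129473029, minus strand: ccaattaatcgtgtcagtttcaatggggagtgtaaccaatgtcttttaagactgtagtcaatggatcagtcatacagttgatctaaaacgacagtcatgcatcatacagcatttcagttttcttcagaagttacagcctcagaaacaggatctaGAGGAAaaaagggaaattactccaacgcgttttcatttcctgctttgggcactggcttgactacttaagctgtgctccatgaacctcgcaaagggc
The *Clec4e* window held an AhR core at positions -93 to -89 from the start, a C/EBP site at -66 to -59 and 2 PU.1 cores. The windows of *Clec4d* and *Clec7a* held 1 PU.1 core each and that of *Clec5a* held 2. Of the 8 members with an entry, 6 had a PU.1 core, 2 an AhR core, 2 a C/EBP site, 1 an AP-1 site and 1 a kappaB site. Among 32851 windows of the same length, 23.3% held the PU.1 core, 28.2% the AhR core, 9.56% the C/EBP site, 6.75% the AP-1 site and 4.98% the kappaB site. A match describes the letters of the window and nothing more.

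Total counts per library ran from 12152496 to 50644601 reads, apart from 1 unactivated *Ahr+/+* library at 20 h with 233047331 reads. The lowest count of any member in any library was 89 reads. *Ahr* itself was not lower in the *Ahr-/-* libraries (5.11 to 28.1 CPM, counts-per-million of the library total scaled by TMM, against 1.09 to 14.9 CPM). Summing over all exons says nothing of what the remaining transcript can encode. *Ahrr*, a target of the AhR that encodes its repressor, separated the genotypes instead. With BaP at 3 h its log2 fold change was 3.36 ± 0.26 (SE) in *Ahr+/+* BMMs and -0.33 ± 0.46 in *Ahr-/-* BMMs, a difference that passed the test (edgeR adjusted p = 0.000204). The difference between the genotypes lay in the same direction but did not pass for BaP at 20 h (-1.42, adjusted p = 0.0399), I3C at 3 h (-1.77, adjusted p = 1) or I3C at 20 h (-1.63, adjusted p = 0.0156). The 8 macrophage markers, F4/80 (*Adgre1*) and CD11b (*Itgam*) among them, passed the filter and summed to between 18610 and 35730 CPM. None of the 7 lymphocyte and 4 mast cell or basophil markers passed, and the 6 dendritic cell markers summed to at most 4.79 CPM and the 6 fibroblast markers to at most 8.35 CPM. The 9 neutrophil markers summed to 15.7 to 44.1 CPM in unactivated *Ahr+/+* BMMs at 3 h and to 112 to 261 CPM with hk S.E., while *Ly6g*, *Mpo*, *Elane* and *Retnlg* did not pass the filter. The part of these transcripts in the 3 h results was not tested. In bulk RNA a smaller share of cells with a transcript and less transcript per cell cannot be told apart. All 16 *Ahr-/-* libraries at 20 h carry identifiers of one series and the 12 activated *Ahr+/+* libraries at 20 h carry those of another, so identifier series and genotype cannot be told apart in the activated cells at that time.

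To describe the receptor set of resting BMMs, levels were compared between genes as CPM per kilobase of exon (RPKM). In unactivated *Ahr+/+* BMMs at 3 h, *Clec4d* was the most abundant member at 382 ± 28.6 RPKM (SD, n = 4), followed by *Clec4n* at 101 ± 6.75, *Clec12a* at 74.6 ± 8.47 and *Clec4a1* at 66.5 ± 6.96 RPKM. *Clec7a*, *Clec4a3* and *Clec4e* lay together at 36.9 ± 7.32, 36.8 ± 8.46 and 34.7 ± 2.31 RPKM, above *Clec4a2* at 26.1 ± 2.40 and *Clec5a* at 11.7 ± 1.98 RPKM. Neighbours in this order overlapped between *Clec12a* and *Clec4a1*, *Clec7a* and *Clec4a3*, and *Clec4a3* and *Clec4e*. After 20 h with hk S.E. the order was led by *Clec4e* at 821 ± 128 RPKM and *Clec4d* at 605 ± 59.1 RPKM, whose libraries overlapped, and *Clec7a* was last at 2.15 ± 0.26 RPKM. The same genes led and closed the order in *Ahr-/-* BMMs at 20 h, with *Clec4e* at 835 ± 337, *Clec4d* at 537 ± 66.9 and *Clec7a* at 2.13 ± 0.39 RPKM.

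**Figure D1:**
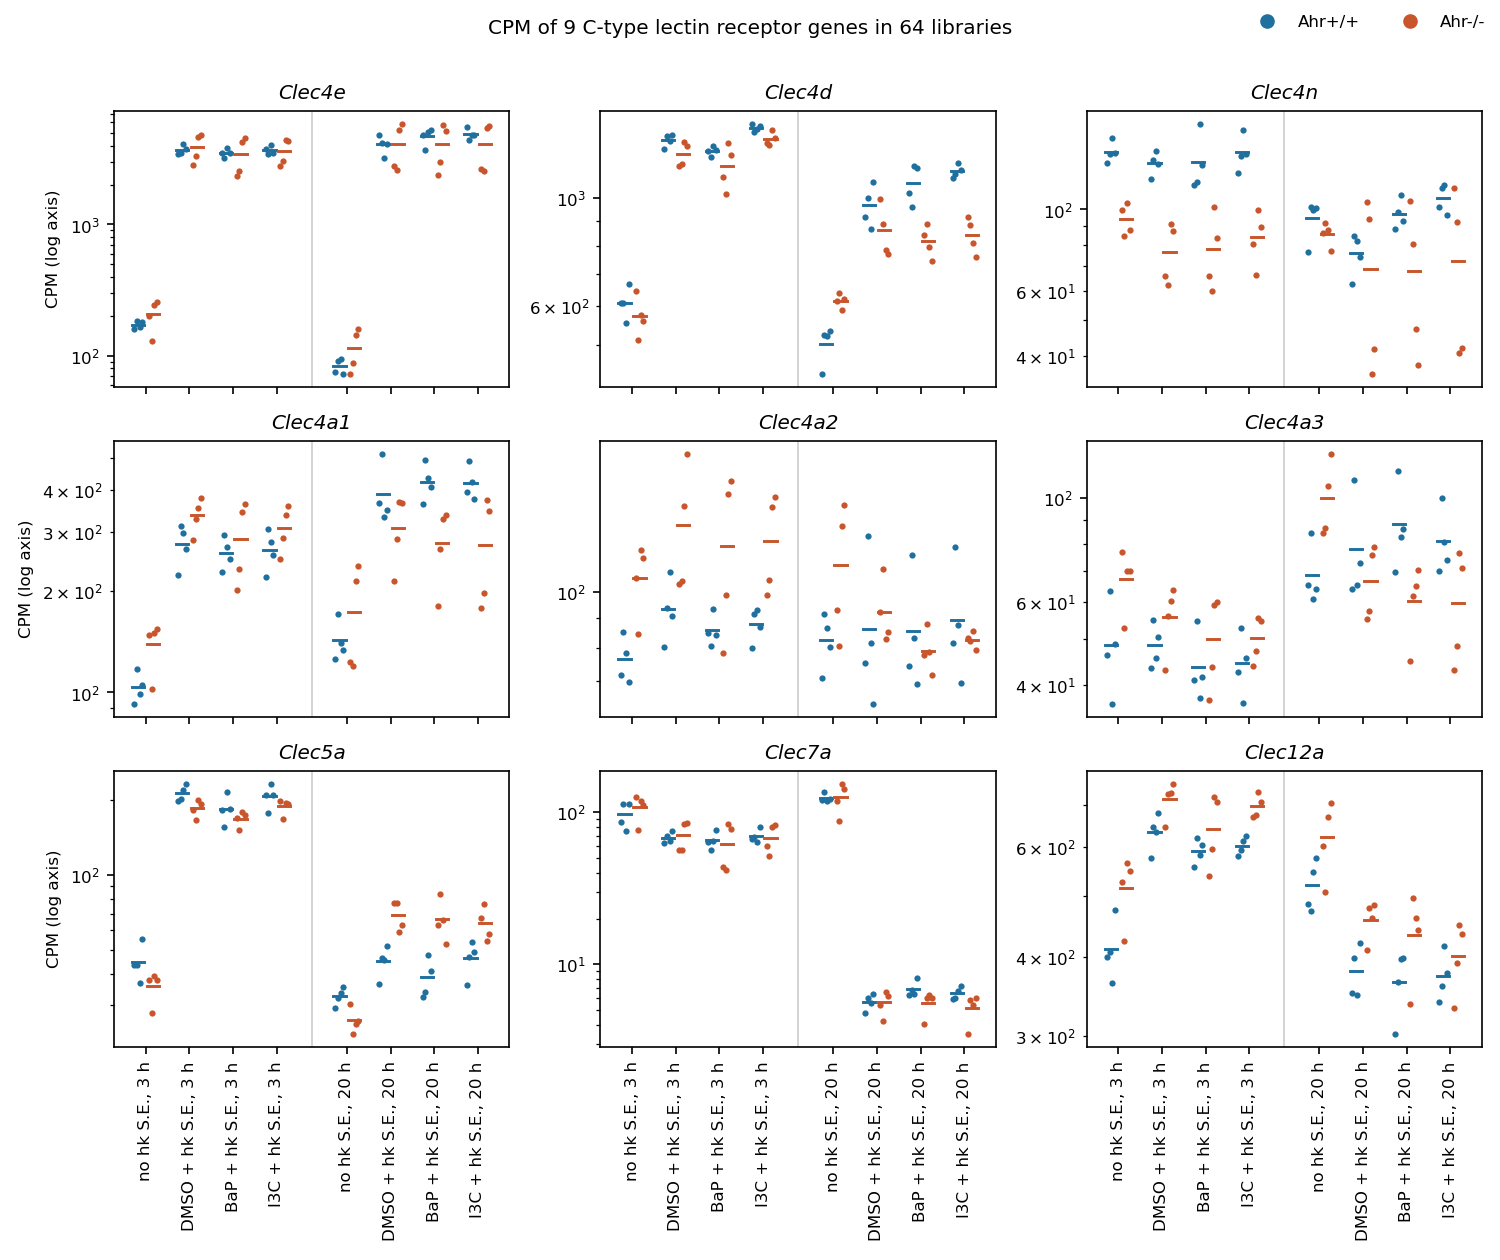
CPM (log axis, a scale of its own in each panel) of the 9 receptor genes in all 64 libraries; points are libraries, bars are means of 4, blue is Ahr+/+ and orange Ahr-/-, with 3 h at the left and 20 h at the right of each panel. Clec4e stood at 2353 CPM or more in every activated library and at 256 CPM or less in every unactivated one, and Clec7a fell to between 3.48 and 8.19 CPM in the activated libraries at 20 h.

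The response to activation was read from BMMs given DMSO, with hk S.E. minus without. In *Ahr+/+* BMMs at 3 h, 5 of the 9 receptor genes were called higher and none was called lower. *Clec4e* led with a 21.5-fold increase, and *Clec5a*, *Clec4a1*, *Clec4d* and *Clec12a* rose between 1.54-fold and 4.76-fold. At 20 h the set had split: *Clec4e*, *Clec4a1*, *Clec4d* and *Clec5a* were higher, and *Clec7a* and *Clec12a* were lower, *Clec7a* by 21.7-fold. A gene is called where the adjusted p of edgeR's quasi-likelihood test over all 14537 genes is below 0.01. Over all genes 56.6% were called at 3 h, 24.2% higher and 32.3% lower, and 58.6% at 20 h, 29.9% higher and 28.7% lower, beside which the members' shares of 55.6% and 66.7% are not unusual. The median log2 fold change was 0.62 over the 9 members against -0.10 over all genes at 3 h, and 0.18 against -0.00073 at 20 h.

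**Figure D2:**
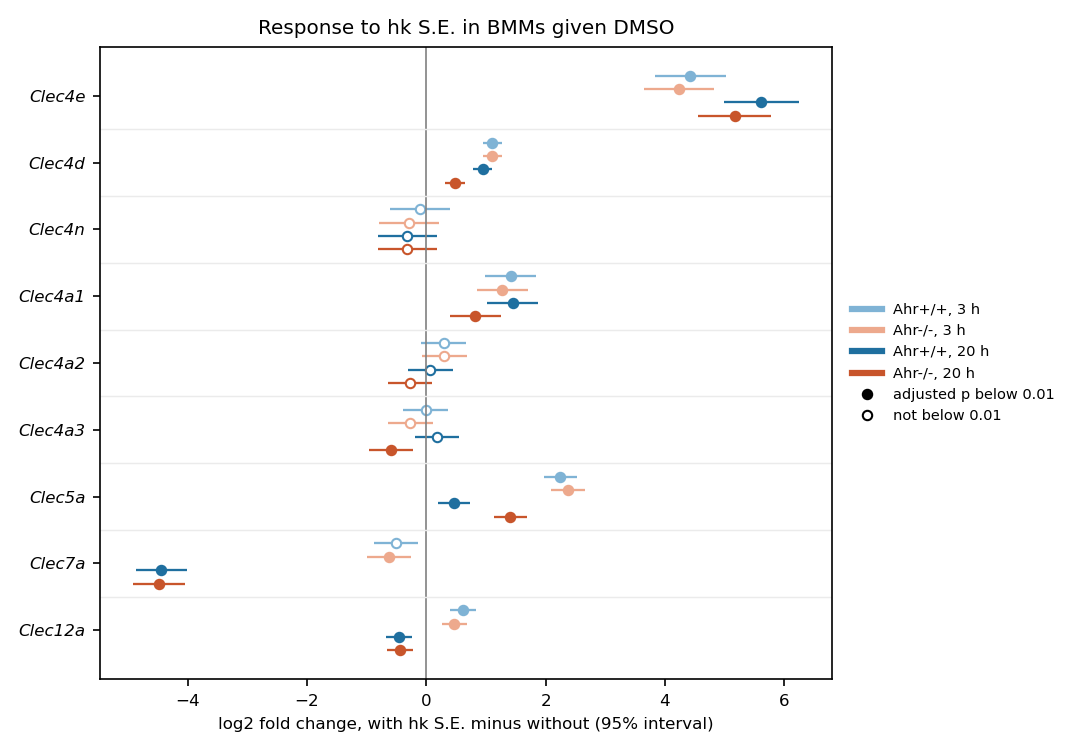
Log2 fold changes of the 9 receptor genes with hk S.E. against no hk S.E. (x axis, with 95% intervals), in BMMs given DMSO, for each genotype and time; filled points passed an adjusted p of 0.01 and open points did not. Clec4e lies farthest to the right (4.24 to 5.61) and Clec7a at 20 h farthest to the left (-4.44 and -4.48), and Clec12a changes side between 3 h and 20 h.

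*Clec4e* (Mincle) stood at 161, 185, 165 and 179 CPM in the 4 unactivated *Ahr+/+* libraries at 3 h and at 3426, 3526, 4108 and 3779 CPM with hk S.E. At 20 h it stood at 75.1, 91.2, 93.9 and 72.9 CPM without and at 4777, 4204, 3238 and 4084 CPM with hk S.E. The groups were far apart at both times. The log2 fold change was 4.43 ± 0.30 at 3 h (adjusted p = 1.72e-19) and 5.61 ± 0.31 at 20 h (adjusted p = 9.02e-23), the 439th and 407th largest in size of 14537. The values in *Ahr-/-* BMMs were 4.24 ± 0.29 (adjusted p = 6.62e-19) and 5.17 ± 0.31 (adjusted p = 1.36e-21).

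*Clec4d* (MCL), its neighbour and partner, started from a higher level and changed less. It stood at 610, 610, 555 and 667 CPM in unactivated *Ahr+/+* BMMs at 3 h and at 1262, 1346, 1313 and 1347 CPM with hk S.E., without overlap. The log2 fold change was 1.11 ± 0.08 at 3 h in each genotype (adjusted p = 6.17e-18 in *Ahr+/+* and 6.81e-18 in *Ahr-/-*). At 20 h it was 0.94 ± 0.08 in *Ahr+/+* (adjusted p = 2.38e-15) and 0.48 ± 0.08 in *Ahr-/-* BMMs (adjusted p = 6.49e-07).

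*Clec4n* (Dectin-2), in the same cluster, did not pass the test with hk S.E. in any of the 4 comparisons, with log2 fold changes of -0.10 ± 0.25 and -0.32 ± 0.25 in *Ahr+/+* and of -0.29 ± 0.25 and -0.32 ± 0.25 in *Ahr-/-* BMMs at 3 h and 20 h. Together the 95% intervals spanned -0.82 to 0.40.

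*Clec5a* (MDL-1) responded early. It stood at 43.4, 43.7, 36.8 and 55.2 CPM in unactivated *Ahr+/+* libraries at 3 h and at 199, 201, 219 and 233 CPM with hk S.E. By 20 h the groups were close, at 29.3, 32.1, 33.6 and 35.6 CPM without and 36.5, 46.4, 45.7 and 52.0 CPM with hk S.E., still without overlap. The log2 fold change was 2.25 ± 0.14 at 3 h (adjusted p = 5.42e-21) and 0.47 ± 0.13 at 20 h (adjusted p = 0.00178). The 20 h call was lost without the hk S.E. *Ahr+/+* replicate 4 (adjusted p = 0.0142). The *Ahr-/-* log2 fold change was 2.37 ± 0.14 at 3 h and 1.41 ± 0.14 at 20 h (adjusted p = 6.82e-22 and 1.84e-13).

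*Clec7a* (Dectin-1) moved the other way, and mainly late. At 3 h it stood at 86.9, 114, 75.2 and 113 CPM without and 62.7, 70.1, 64.9 and 75.4 CPM with hk S.E. in *Ahr+/+* BMMs, with a slight overlap of the groups. At 20 h the values were 121, 135, 118 and 122 CPM without and 4.76, 5.98, 5.56 and 6.39 CPM with hk S.E. The change at 20 h was -4.44 ± 0.21 on the log2 scale in *Ahr+/+* and -4.48 ± 0.21 in *Ahr-/-* BMMs (adjusted p = 1.74e-25 and 1.40e-25), the 331st and 299th lowest of all genes. At 3 h the log2 fold change was -0.51 ± 0.18 in *Ahr+/+* (adjusted p = 0.0128) and -0.62 ± 0.18 in *Ahr-/-* BMMs (adjusted p = 0.00248), and the latter call was lost without unactivated replicate 1 (adjusted p = 0.0132), hk S.E. replicate 1 (0.0378) or hk S.E. replicate 2 (0.0414) and in a fit of the compared groups alone (0.0344). The *Ahr+/+* difference at 3 h passed in a fit of the compared groups alone (-0.472, adjusted p = 0.00305). It also passed with the replicate number as a block (-0.504, adjusted p = 0.000139) and without unactivated replicate 3 (-0.616, adjusted p = 0.00478).

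The inhibitory receptors and their relatives did not move as a group. *Clec12a* (MICL) was higher with hk S.E. at 3 h and lower at 20 h. Its *Ahr+/+* values were 401, 407, 364 and 476 CPM without and 577, 644, 633 and 678 CPM with hk S.E. at 3 h, and 487, 475, 547 and 576 CPM without and 351, 399, 348 and 421 CPM with hk S.E. at 20 h. Neither pair of groups overlapped. The log2 fold changes were 0.62 ± 0.11 and -0.46 ± 0.11 in *Ahr+/+* (adjusted p = 1.23e-06 and 0.000183) and 0.47 ± 0.11 and -0.44 ± 0.11 in *Ahr-/-* BMMs (adjusted p = 0.000124 and 0.00034).

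*Clec4a1*, a relative of DCIR, rose 2.66-fold at 3 h and 2.74-fold at 20 h in *Ahr+/+* BMMs. It went from 92.3, 118, 99.1 and 105 to 224, 313, 300 and 268 CPM at 3 h and from 126, 172, 140 and 134 to 367, 514, 334 and 349 CPM at 20 h, without overlap at either time. The log2 fold changes were 1.41 ± 0.21 and 1.45 ± 0.21 (adjusted p = 6.24e-08 and 3.00e-08). Those of *Ahr-/-* BMMs were 1.28 ± 0.21 and 0.82 ± 0.21 (adjusted p = 5.22e-07 and 0.000555), and at 20 h the *Ahr-/-* groups overlapped and the call was lost in a fit of the compared groups alone (adjusted p = 0.0322). *Clec4a2* (DCIR) was called in none of the 4 comparisons, with log2 fold changes from -0.27 to 0.30. In *Ahr+/+* BMMs at 3 h it passed in a fit of the compared groups alone (0.326, adjusted p = 0.00863). *Clec4a3* was called only in *Ahr-/-* BMMs at 20 h (-0.59 ± 0.19, adjusted p = 0.00498). That call was lost without hk S.E. replicate 1 or 2 (adjusted p = 0.0258 and 0.0217), without unactivated replicate 3 or 4 (0.0133 and 0.0362) and in a fit of the compared groups alone (0.0153). At 3 h in *Ahr-/-* BMMs *Clec4a3* passed with the replicate number as a block (-0.293, adjusted p = 0.00752).

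In *Ahr-/-* BMMs 6 members were called at 3 h, 5 higher and 1 lower, beside 57.3% of all genes, 25.5% higher and 31.8% lower. At 20 h 7 were called, 4 higher and 3 lower, beside 54.3% of all genes, 28.3% higher and 26% lower. *Clec4e*, *Clec4d*, *Clec4a1* and *Clec5a* were called higher in both genotypes at both times.

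The length of activation was examined by comparing 20 h with 3 h within each state. In *Ahr+/+* BMMs with hk S.E., 5 members were lower at 20 h than at 3 h and 1 was higher, beside 59.5% of all genes called, 26.4% lower and 33% higher. *Clec7a* was lower by 12.0-fold (log2 fold change -3.58 ± 0.21, adjusted p = 8.30e-22) and *Clec5a* by 4.71-fold (-2.24 ± 0.14, adjusted p = 8.19e-21). All 5 neutrophil markers tested were lower at 20 h as well, with a median log2 fold change of -2.67 and a median sum of 26.8 CPM against 190 CPM at 3 h, and their part in these results was not tested. *Clec12a*, *Clec4d* and *Clec4n* were also lower, at log2 fold changes of -0.74 ± 0.11, -0.45 ± 0.08 and -0.81 ± 0.25, and *Clec4a3* was higher at 0.68 ± 0.19 (adjusted p = 2.71e-08, 2.67e-06, 0.00358 and 0.00131). *Clec4e* did not pass, with a log2 fold change of 0.14 ± 0.26 and an interval from -0.38 to 0.65. *Clec4a1* stood at 0.502 and did not pass (adjusted p = 0.0306). It passed in a fit of the compared groups alone (0.471, adjusted p = 0.00476) and with the replicate number as a block (0.497, adjusted p = 5.72e-05). The call of *Clec4n* was lost without the 20 h replicate 1 (adjusted p = 0.0166), and that of *Clec4a3* without the 3 h replicate 1 or 3 or the 20 h replicate 2 (0.0207, 0.0164 and 0.0282).

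In *Ahr-/-* BMMs with hk S.E. 4 members were lower at 20 h and none higher, beside 56% of all genes called, 24.3% lower and 31.7% higher. Of the 5 neutrophil markers tested 4 were lower too. The members were *Clec7a* (-3.64 ± 0.21), *Clec5a* (-1.42 ± 0.13), *Clec12a* (-0.64 ± 0.11) and *Clec4d* (-0.52 ± 0.08), with adjusted p between 4.33e-22 and 6.22e-07. *Clec4a2* stood at -0.50 ± 0.19 and just missed the threshold (adjusted p = 0.0166), and in the fit with the replicate number as a block it passed (-0.46, adjusted p = 0.00447). These activated *Ahr-/-* libraries all carry identifiers of a single series at 3 h and of a different series at 20 h. Identifier series and time therefore cannot be told apart in this comparison.

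Without hk S.E. the times differed less. In *Ahr+/+* BMMs *Clec4e* alone was called, lower at 20 h with a log2 fold change of -1.05 ± 0.26 (adjusted p = 0.00412), beside 6.07% of all genes, and the 2 groups did not overlap. The call was lost without the 3 h replicate 2 or 4 or the 20 h replicate 1 or 4 (adjusted p = 0.0127, 0.0114, 0.0178 and 0.0217) and with the identifier series as a covariate (0.0127). *Clec4n* and *Clec5a* stood at -0.6 and -0.454 and did not pass (adjusted p = 0.113 and 0.0174). Both passed in a fit of the compared groups alone (-0.616 and -0.466, adjusted p = 0.000673 and 0.00783). No member was called in *Ahr-/-* BMMs, beside 6.98% of all genes, and the log2 fold change of *Clec4e* was -0.84 ± 0.26 (adjusted p = 0.0223). With the replicate number as a block, *Clec4e* (-0.892), *Clec4a3* (0.545) and *Clec5a* (-0.455) passed there (adjusted p = 5.97e-08, 2.44e-05 and 0.00395). The libraries of replicate 1 did not deviate together between these times (r = -0.211).

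A test of the difference between the 20 h and 3 h responses, which takes the drift of unactivated cells into account, called 4 members in *Ahr+/+* BMMs beside 47.8% of all genes. The difference was -3.93 ± 0.27 for *Clec7a*, -1.78 ± 0.19 for *Clec5a* and -1.07 ± 0.15 for *Clec12a* on the log2 scale (adjusted p = 2.61e-18, 7.70e-12 and 1.88e-08). The response of *Clec4e* was larger at 20 h by 1.19 ± 0.37 (adjusted p = 0.00462). Its call was lost in 7 fits that each left out 1 library, the hk S.E. libraries 1 to 4 at 3 h, the hk S.E. library 1 at 20 h and the unactivated libraries 1 and 4 at 20 h (adjusted p from 0.0101 to 0.0183), and with the identifier series as a covariate (0.0146). In *Ahr-/-* BMMs *Clec7a* (-3.86 ± 0.27), *Clec5a* (-0.97 ± 0.19), *Clec12a* (-0.91 ± 0.15) and *Clec4d* (-0.62 ± 0.11) were called lower, beside 44.7% of all genes, with adjusted p between 5.43e-18 and 1.76e-05. Identifier series and time cannot be told apart in the activated *Ahr-/-* libraries here either. *Clec4e* lay in the same direction as in *Ahr+/+* BMMs, at 0.928, and did not pass (adjusted p = 0.0278). It passed with the replicate number as a block (0.917, adjusted p = 3.89e-06) and without the unactivated 3 h replicate 2 (1.1, adjusted p = 0.00976).

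Whether these receptors depended on the AhR was examined by comparing the genotypes in BMMs given DMSO, *Ahr-/-* minus *Ahr+/+*. *Clec5a* alone passed the threshold, with hk S.E. at 20 h, beside 12.5% of all genes. It stood at 77.1, 77.5, 59.2 and 63.2 CPM in *Ahr-/-* and at 36.5, 46.4, 45.7 and 52.0 CPM in *Ahr+/+* BMMs. All *Ahr-/-* libraries were above all *Ahr+/+* libraries. The difference was 1.53-fold (log2 fold change 0.61 ± 0.13, interval 0.35 to 0.88, adjusted p = 0.000481). The call was lost in a fit of the compared groups alone (0.64, adjusted p = 0.0114) and with the identifier series as a covariate (0.52, adjusted p = 0.0632). Without hk S.E. at 20 h the values were 30.2, 23.0, 25.2 and 25.8 CPM in *Ahr-/-* and 29.3, 32.1, 33.6 and 35.6 CPM in *Ahr+/+* BMMs, so that *Clec5a* was on the other side there (-0.32 ± 0.13, adjusted p = 0.26).

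**Figure D3:**
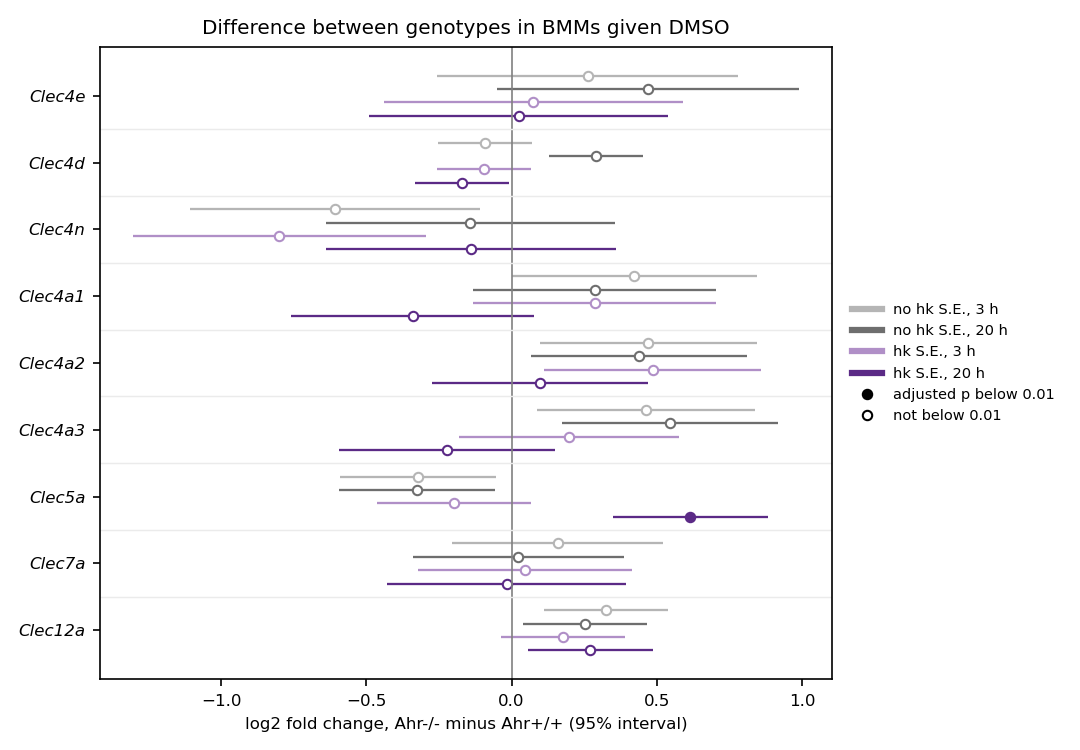
Log2 fold changes of the 9 receptor genes between Ahr-/- and Ahr+/+ BMMs given DMSO (x axis, with 95% intervals), in each state and at each time; filled points passed an adjusted p of 0.01 and open points did not. Clec5a with hk S.E. at 20 h (0.61) is the only filled point, and Clec4n lies left of 0 in all 4 states.

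No member was called between the genotypes in unactivated BMMs at 3 h (1.21% of all genes called) or at 20 h (0.702%), or with hk S.E. at 3 h (2.83%). At an unadjusted p below 0.05 there were 6, 5 and 2 members, beside 1452, 1814 and 2778 of the 14537 genes. *Clec4n* showed the largest of the differences at 3 h. It stood at 99.6, 84.9, 104 and 88.2 CPM in unactivated *Ahr-/-* BMMs against 134, 142, 157 and 142 CPM in *Ahr+/+* BMMs, and with hk S.E. at 65.8, 62.4, 91.3 and 87.7 CPM against 121, 136, 144 and 133 CPM. Neither pair of groups overlapped, and the log2 fold changes were -0.61 ± 0.25 (adjusted p = 0.294) and -0.80 ± 0.25 (adjusted p = 0.0435). *Clec4d* in unactivated BMMs at 20 h was 0.29 ± 0.08 higher in *Ahr-/-* on the log2 scale, also without overlap (adjusted p = 0.0411), and passed in DESeq2 (0.31, adjusted p = 0.00658). *Clec7a*, the gene of Dectin-1, differed by 0.02 to 0.16 on the log2 scale in size, with intervals that stayed between -0.43 and 0.52.

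A test of the difference in the response to hk S.E. between the genotypes, *Ahr-/-* minus *Ahr+/+*, called no member at 3 h, where 0.0138% of all genes were called and no member had an unadjusted p below 0.05. At 20 h it called *Clec5a* and *Clec4d*, beside 4.41% of all genes. The response of *Clec5a* was 0.94 ± 0.19 larger in *Ahr-/-* BMMs (adjusted p = 0.000551), and this call stood in every alternative fit that was run. In the activated groups of this test, identifier series and genotype cannot be told apart. The difference was -0.46 ± 0.11 for *Clec4d* (adjusted p = 0.00466). Its unactivated *Ahr-/-* libraries at 20 h stood at 616, 638, 589 and 620 CPM, above the 435, 524, 520 and 533 CPM of *Ahr+/+*, while with hk S.E. its *Ahr-/-* libraries stood at 999, 886, 785 and 767 CPM and overlapped with the 918, 1004, 867 and 1081 CPM of *Ahr+/+*. The *Clec4d* call was lost without the unactivated *Ahr+/+* replicate 1 (adjusted p = 0.021), the hk S.E. *Ahr+/+* replicate 2 or 4 (0.0121 and 0.0189), the unactivated *Ahr-/-* replicate 2 (0.0119) or the hk S.E. *Ahr-/-* replicate 3 or 4 (0.013 and 0.0166), in a fit of the 4 compared groups alone (0.054) and with no filter on low counts (0.0212). *Clec4a3* and *Clec4a1* stood at -0.77 ± 0.26 and -0.63 ± 0.29 and did not pass (adjusted p = 0.0527 and 0.197), whereas both passed with the replicate number as a block (-0.75 and -0.59, adjusted p = 6.24e-05 and 0.00362).

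The AhR ligands were compared with DMSO in activated BMMs, BaP and I3C each against the same 4 DMSO libraries of the genotype and time. No member was called in any of the 8 comparisons, whose log2 fold changes lay between -0.23 and 0.50, and 1 of the 72 had an unadjusted p below 0.05. With BaP in *Ahr-/-* BMMs at 3 h, same-numbered libraries deviated together. The members' log2 fold changes lay there between -0.23 and 0.02, with a median of -0.16 against 0.0063 over all genes. None passed with or without the replicate block. Among all genes, BaP called 0.0482% at 3 h and 0.234% at 20 h in *Ahr+/+* BMMs, against 0.0275% and 0.0138% in *Ahr-/-* BMMs. The shares called with I3C were 0.131% at 3 h and 0.509% at 20 h in *Ahr+/+*, against 0.0206% and 0.206% in *Ahr-/-* BMMs. The tests of ligand by genotype called no member either, beside 0.0138% of all genes for BaP at 3 h and 0% for BaP at 20 h and for I3C at both times, and 2 of the 36 had an unadjusted p below 0.05.

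**Figure D4:**
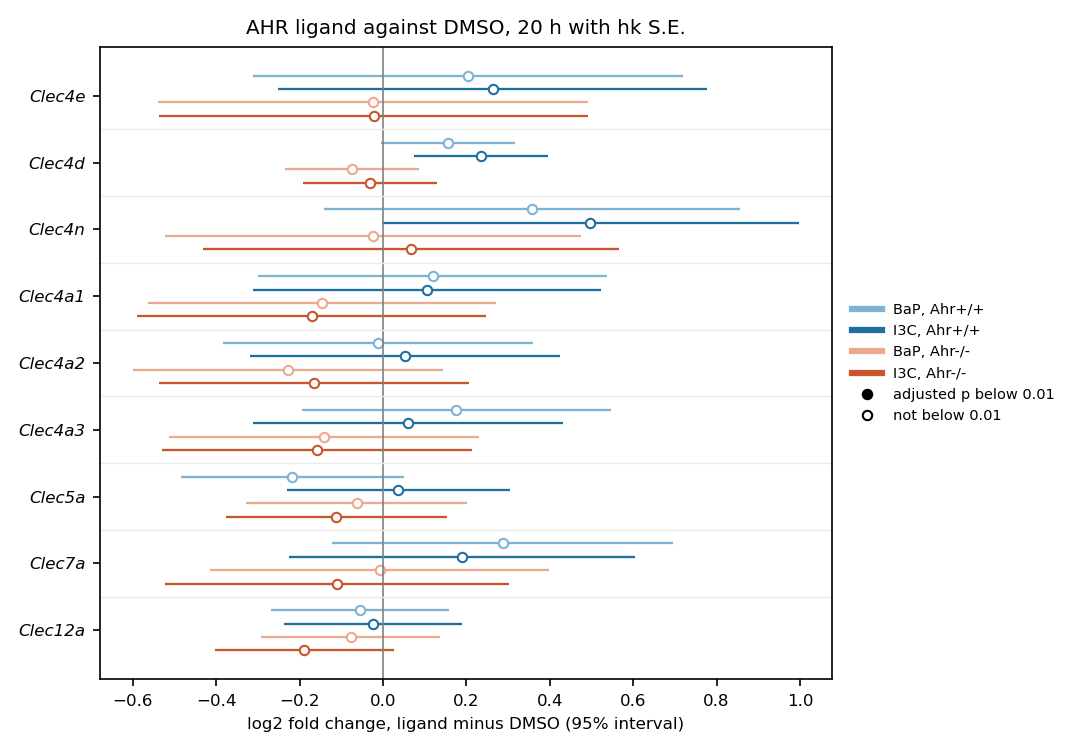
Log2 fold changes of the 9 receptor genes with BaP or I3C against DMSO in BMMs activated for 20 h (x axis, with 95% intervals), in each genotype; all points are open because none passed an adjusted p of 0.01. The largest value is that of Clec4n with I3C in Ahr+/+ BMMs (0.50), whose interval reaches from -0.0023 to 1.00.

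The gene with the smallest p among the ligand comparisons was *Clec4d* with I3C in *Ahr+/+* BMMs at 20 h. It stood at 1103, 1122, 1182 and 1146 CPM with I3C and at 1025, 960, 1168 and 1156 CPM with BaP, against 918, 1004, 867 and 1081 CPM with DMSO. All I3C libraries were above all DMSO libraries, and the BaP libraries overlapped with DMSO. The log2 fold change was 0.23 ± 0.08 with I3C (adjusted p = 0.258) and 0.16 ± 0.08 with BaP (adjusted p = 0.508). The *Ahr-/-* values were -0.03 ± 0.08 with I3C and -0.07 ± 0.08 with BaP.

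*Clec4n* gave the largest values with a ligand. In *Ahr+/+* BMMs at 20 h it stood at 101, 114, 116 and 96.8 CPM with I3C and at 88.6, 98.2, 109 and 93.1 CPM with BaP, against 62.5, 84.6, 82.3 and 74.4 CPM with DMSO. Both ligand groups were above all DMSO libraries, at log2 fold changes of 0.50 ± 0.25 (adjusted p = 0.883) and 0.36 ± 0.25 (adjusted p = 0.671). In *Ahr-/-* BMMs they were 0.07 ± 0.25 and -0.02 ± 0.25. *Clec7a*, at its low level of 20 h, stood at 5.96, 6.03, 6.71 and 7.26 CPM with I3C and 6.31, 6.84, 6.42 and 8.19 CPM with BaP against 4.76, 5.98, 5.56 and 6.39 CPM with DMSO, and *Clec4e* had log2 fold changes of 0.26 ± 0.26 and 0.20 ± 0.26. The ligands were given at different concentrations, so their values are set side by side and were not compared with each other.

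The *Ahr-/-* libraries spread more than the *Ahr+/+* libraries for some members. The fit over all libraries shares its estimate of a gene's spread between the genotypes. An SE in *Ahr+/+* BMMs therefore also carries the spread of the *Ahr-/-* libraries. The SD of log2 CPM within groups was 0.52 in *Ahr-/-* against 0.16 in *Ahr+/+* BMMs for *Clec4e*, 0.50 against 0.17 for *Clec4n* and 0.39 against 0.20 for *Clec4a1*. It was 0.19 against 0.20 for *Clec5a*, 0.12 against 0.097 for *Clec4d*, and 0.28 against 0.18 for the median gene. The spread had a fixed shape for *Clec4e*, whose activated *Ahr-/-* libraries at 20 h with DMSO stood at 2812, 2612, 5286 and 5870 CPM in replicates 1 to 4. In all 8 *Ahr-/-* groups replicates 3 and 4 were both above replicates 1 and 2 for *Clec4e* and *Clec4a1*, in 7 for *Clec4a3* and in 6 for *Clec7a* and *Clec12a*. For *Clec4n* this was so in 3 groups, and the opposite in the 3 activated groups at 20 h, where the DMSO libraries stood at 105, 94.0, 35.6 and 41.8 CPM. Among all genes tested, 1.91% had replicates 3 and 4 above in all 8 *Ahr-/-* groups and 1.27% had them below, against 0.138% and 0.0344% in *Ahr+/+* BMMs. The 6 fibroblast markers split the same libraries, at 0.188 to 1.71 CPM summed in replicates 1 and 2 and 2.69 to 8.35 CPM in replicates 3 and 4, with replicates 3 and 4 above in all 8 *Ahr-/-* groups, and the summed CPM of the 8 macrophage markers, to which *Lyz2* gave the largest share, was lower in replicates 3 and 4 in all 8. In *Ahr+/+* BMMs this sum was higher in replicates 3 and 4 in 7 of 8 groups. The part of these in the levels of *Clec4e* and *Clec4a1* was not tested.

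Likeness among the members is given as Pearson's r of log2 CPM, as a description. Over the 16 group means, which share mice and are dominated by the contrast of activation, *Clec4e* was most like *Clec4a1* (r = 0.90) and *Clec4d* (r = 0.86), *Clec4d* was like *Clec5a* (r = 0.82), and *Clec7a* was like *Clec12a* (r = 0.74) and unlike *Clec4a1* (r = -0.65) and *Clec4e* (r = -0.61). The lowest of the 36 pairs was *Clec5a* with *Clec4a3* (r = -0.81). Over the deviations of the 64 libraries from their group mean, which share depth and the replicate pattern above, *Clec4a1* was like *Clec4a3* (r = 0.86) and *Clec4e* (r = 0.81). The likeness to *Clec4e* came from the *Ahr-/-* libraries (r = 0.93) and was not seen over the 32 *Ahr+/+* libraries (r = 0.088), whereas that of *Clec4a1* to *Clec4a3* was present in both (r = 0.95 and 0.76). *Clec4e* and *Clec4d* deviated together over the *Ahr+/+* libraries (r = 0.49) and not over the *Ahr-/-* libraries (r = -0.18). *Clec4d* and *Clec5a* deviated together in both genotypes (r = 0.71 in *Ahr+/+* and 0.70 in *Ahr-/-*), although they lie on different sites of the chromosome.

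**Figure D5:**
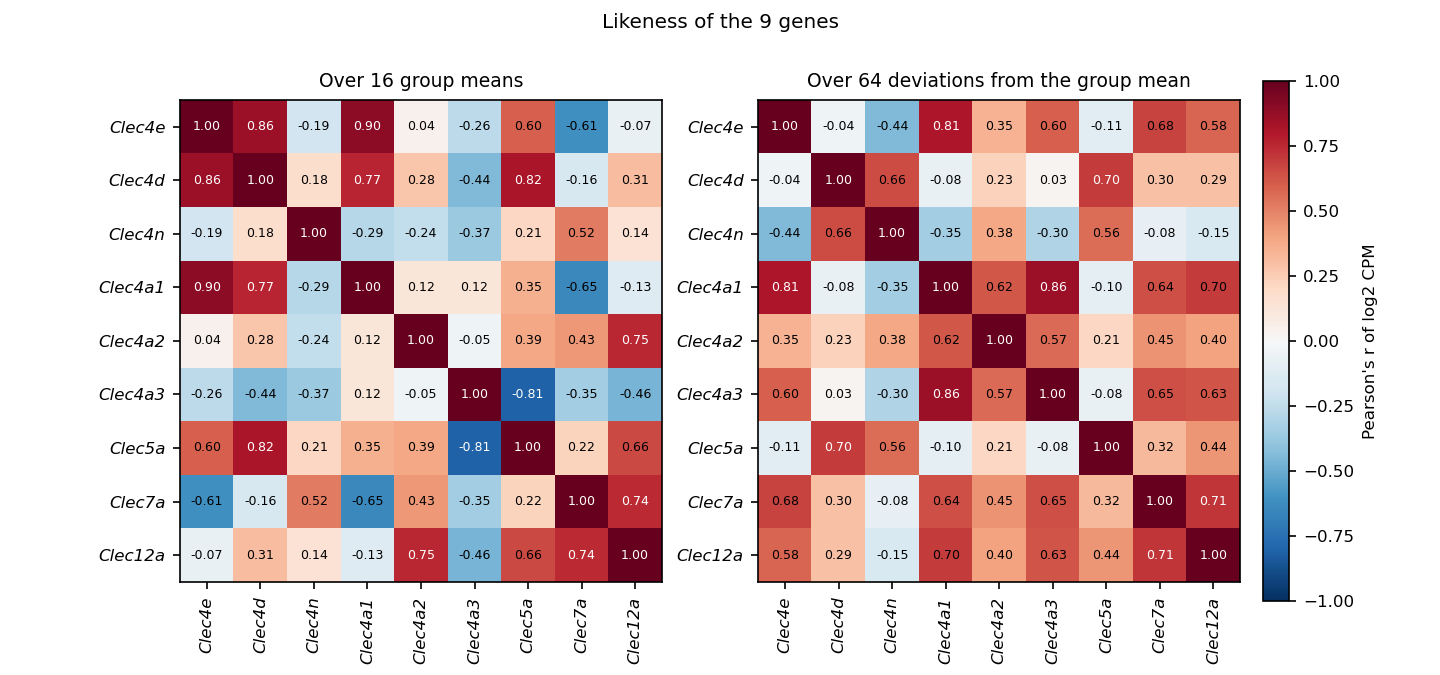
Pearson's r of log2 CPM between the 9 receptor genes (both axes), over the 16 group means at the left and over the deviations of 64 libraries from their group mean at the right; red is positive and blue negative. Clec4e and Clec4d go together over the group means (0.86) and not over the deviations (-0.04), while Clec4e and Clec4a1 go together in both (0.90 and 0.81).

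Among all 14537 genes, those with the most similar profile over the 16 group means were *Zbp1*, *C3* and *Tarm1* for *Clec4e* (r between 0.997 and 0.998), *Abhd12*, *Colec12* and *Timp2* for *Clec7a* (0.998 to 0.999), *Lnpk*, *Gspt1* and *Oxsr1* for *Clec5a* (0.993 to 0.994) and *Ythdc1*, *Ifi209* and *Klf6* for *Clec4d* (0.987 to 0.988). They were *Zfas1*, *Ptafr* and *Fyb* for *Clec4a1* (0.978 to 0.982) and *Ankrd44*, *2900089D17Rik* and *Cd48* for *Clec12a* (0.961 to 0.965). *Clec4n*, *Clec4a3* and *Clec4a2* had looser companions: *Gng11*, *Mmp8* and *Fuca2* for *Clec4n* (0.892 to 0.92), *9530062K07Rik*, *1110032A03Rik* and *Clk1* for *Clec4a3* (0.897 to 0.925) and *Ust*, *Smim5* and *Specc1l* for *Clec4a2* (0.816 to 0.847).

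Of 28 adapters and signalling genes of these receptors, all were tested and 20 were called with hk S.E. in *Ahr+/+* BMMs at 3 h, 13 higher and 7 lower, and 23 at 20 h, 16 higher and 7 lower (71.4% and 82.1%, against 56.6% and 58.6% of all genes). The median log2 fold change was 0.35 at 3 h and 0.45 at 20 h. *Malt1*, the paracaspase of the Card9 complex, rose by 4.91 ± 0.18 and 4.46 ± 0.17 on the log2 scale at 3 h and 20 h, and the kinase gene *Src* rose as well (4.60 ± 0.20 and 1.66 ± 0.18). *Inpp5d*, which encodes the inhibitory phosphatase SHIP1, fell, at -2.98 ± 0.12 and -1.27 ± 0.12, as did *Nfatc2*, a calcium-regulated transcription factor gene, at -2.48 ± 0.19 and -2.34 ± 0.18. *Vav3*, a guanine nucleotide exchange factor, was higher at 3 h (0.91 ± 0.16) and lower at 20 h (-2.03 ± 0.16). Between the genotypes none of the 28 was called without hk S.E., and 2 (7.14%) were called with it at each time, beside 2.83% of all genes at 3 h and 12.5% at 20 h.

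Of 36 other C-type lectin receptor genes 19 were tested, and 11 were called at 3 h, 6 higher and 5 lower, and 15 at 20 h, 7 higher and 8 lower, in *Ahr+/+* BMMs (57.9% and 78.9%, against 56.6% and 58.6% of all genes). *Cd69*, an early activation marker, rose by 10.2 ± 0.28 and 4.39 ± 0.23 on the log2 scale at 3 h and 20 h, and *Olr1*, the receptor for oxidised LDL, by 6.25 ± 0.32 and 2.45 ± 0.38. *Thbd* (thrombomodulin) fell, at -3.96 ± 0.29 and -4.18 ± 0.28. *Mrc1*, the mannose receptor gene, had log2 fold changes of -0.08 ± 0.19 at 3 h, which did not pass, and of -7.35 ± 0.27 at 20 h, while *Ly75* (DEC-205) rose by 2.63 ± 0.24 and 7.11 ± 0.26. *Clec1a* went from 211 reads over the 4 unactivated libraries to 0 with hk S.E. at 20 h, at least 23.3-fold lower against a floor of 3 reads over the group, and at 3 h it went from 25 reads to 2 (7.59-fold lower, counting interval 1.89 to 66.2). *Cd207* (langerin) went from 858 reads to 1 at 20 h (285-fold lower, counting interval 50.9 to 11300) and was at -0.46 ± 0.29 at 3 h. The median log2 fold change of the 19 was -0.08 at 3 h and 0.68 at 20 h, or 0 at 20 h with the genes at a floor set to their bound. Between the genotypes 2 of the 19 were called in unactivated BMMs at each time, 1 with hk S.E. at 3 h and 7 (36.8%, against 12.5% of all genes) with hk S.E. at 20 h, 4 of them higher and 3 lower in *Ahr-/-* BMMs. *Olr1* was among the higher ones at 20 h (4.02 ± 0.637 CPM against 1.47 ± 0.464 CPM in *Ahr+/+* BMMs, SD, n = 4 each; edgeR adjusted p = 8.74e-05). *Mrc1* was lower in *Ahr-/-* BMMs in all 4 comparisons of genotype, with log2 fold changes from -1.48 to -0.85 (adjusted p between 3.73e-06 and 0.00773).

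Of 15 products that signalling from these receptors can induce, 14 were called with hk S.E. in *Ahr+/+* BMMs at 3 h, 13 higher and 1 lower, and all 15 at 20 h, 13 higher and 2 lower (93.3% and 100%, against 56.6% and 58.6% of all genes). The median log2 fold change was 7.97 at 3 h and 6.67 at 20 h, or 7.91 and 6.56 with the genes absent from unactivated libraries set to their bound. *Nos2* (inducible nitric oxide synthase), *Il6*, *Ptgs2* (cyclooxygenase-2) and *Il12b* rose by 12.5 ± 0.53, 11.1 ± 0.41, 10.4 ± 0.32 and 9.96 ± 0.47 on the log2 scale at 3 h and by 12.6 ± 0.56, 14.6 ± 0.49, 11.7 ± 0.35 and 9.13 ± 0.40 at 20 h. Without hk S.E., *Il6* stood at 0.281 ± 0.215 CPM at 3 h and 0.00506 ± 0.0101 CPM at 20 h in *Ahr+/+* BMMs (SD, n = 4). *Nos2* stood there at 0.196 ± 0.375 and 0.0424 ± 0.0316 CPM, and *Il12b* at 0.0732 ± 0.0488 and 0.114 ± 0.0785 CPM. The sizes of these increases therefore rest on few unactivated reads. Heat-killed *Salmonella* engages many receptors, and these products are not specific to C-type lectin receptors. Between the genotypes 7 of the 15 were called with hk S.E. at 20 h, 6 higher and 1 lower in *Ahr-/-* BMMs, beside 12.5% of all genes, and none in the other 3 states.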

How the data were processed

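RNA from 64 cultures of murine BMMs was sequenced by the authors with a strand-specific poly(A) protocol. The deposited values are read pair counts per gene, which the authors made with HISAT2 2.1.0 on mm10 and HTSeq 0.9.1 (exons, reverse strand, intersection-strict, GENCODE M22), and a log2-scale table, which the authors obtained by variance stabilization in DESeq2. Read pairs assigned to no gene (no feature 3.41 to 5.92%, ambiguous 1.06 to 1.61%, low quality 0.831 to 5.63%, not aligned 0.350 to 0.852%, not unique 12.4 to 15.8% of all pairs) entered neither library sizes nor tests. Groups follow the labels, 4 libraries each. The labels do not say that replicates are separate mice, so p-values measure the spread between these libraries.

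Counts were filtered with filterByExpr (minimum count 10) and TMM-normalized, and 16 group means were fitted over all 64 libraries with the quasi-likelihood test of edgeR 4.0.16 (R 4.3.3), with Benjamini-Hochberg adjustment over 14537 genes and a threshold of 0.01. Errors are SE for fold changes and SD for levels. RPKM divides CPM by the exon length of GENCODE M21. Alternatives were DESeq2 1.42.0, its size factors, no filter, plain totals, a threshold of 0.05, the compared groups alone, the identifier series or the replicate number as a covariate, limma 3.58.1 on the variance-stabilized values, and leaving out each library. Same-numbered libraries deviated together (every r over 0.1) in 7 of 16 comparisons within a genotype. All 9 members were tested in every comparison, and each member that was called is named there, while those not called are named only in part. From each other list the 4 genes with the largest called changes in *Ahr+/+* activation at each time are named, with the 3 genes most like each member, and 1 gene that this rule names is not reported here. The members and lists were chosen with earlier results of these data known. The script was tested on simulated counts.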

Additional observations from a re-analysis of the deposited data

Results flagged for a closer look

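In 5 of 144 groups of 4 libraries, 1 library stood apart from the other 3 in CPM by Dixon's ratio of gap to range. In unactivated *Ahr+/+* BMMs at 20 h, replicate 1 was the lowest for *Clec4d* (0.87) and *Clec4n* (0.909). In unactivated *Ahr-/-* BMMs at 3 h, replicate 2 was the lowest for *Clec4a1* (0.877) and *Clec5a* (0.877). With BaP and hk S.E. at 20 h, replicate 1 of *Ahr-/-* BMMs was the lowest for *Clec7a* (0.858). Chance alone marks about 1 group in 20, and 5 of 144 is below that share.

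Differences between responses that passed the edgeR test of the difference itself are listed here with their log2 values. Between the genotypes (*Ahr-/-* minus *Ahr+/+*), the response to hk S.E. at 20 h differed by -0.462 for *Clec4d* and 0.939 for *Clec5a*. Between 20 h and 3 h in *Ahr+/+* BMMs it differed by 1.19 for *Clec4e*, -1.78 for *Clec5a*, -3.93 for *Clec7a* and -1.07 for *Clec12a*. In *Ahr-/-* BMMs it differed by -0.625 for *Clec4d*, -0.967 for *Clec5a*, -3.86 for *Clec7a* and -0.907 for *Clec12a*.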

How the results depend on the processing

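Of 252 tests of a member, 46 passed, and none reversed under any of these alternatives. Calls were lost in 3 tests with the identifier series as a covariate, in 5 with the compared groups alone and in 1 without the filter, and in none with DESeq2, its size factors, limma on variance-stabilized values or the replicate block. Gained calls numbered 5 with DESeq2, 5 with the compared groups alone, 1 with DESeq2 size factors, 1 with limma and 15 of 216 with the block. Over 2592 tests that each left out 1 library, 29 calls were lost, in 8 pairs of member and comparison, and 10 were gained.

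The number of members called between the genotypes with hk S.E. at 20 h went from 1 to 0 with the identifier series and with the compared groups alone. For the difference in response between the genotypes at 20 h it went from 2 to 1 without the filter and with the compared groups alone, and to 4 with the replicate block, where *Clec4a1* (-0.59) and *Clec4a3* (-0.75) were added, and leaving out libraries gave 1 to 2. For unactivated *Ahr+/+* BMMs at 20 h against 3 h the count of 1 became 0 with the identifier series, 3 with DESeq2, 3 with the compared groups alone, 4 at a threshold of 0.05 and 6 with the replicate block, with 0 to 3 when libraries were left out. In unactivated *Ahr-/-* BMMs the count of 0 became 1 with DESeq2, 3 at 0.05 and 3 with the replicate block, with 0 to 2 when libraries were left out. Between the genotypes the count of 0 became 1 at 0.05 for unactivated BMMs at 20 h and for hk S.E. at 3 h, and 1 with DESeq2 for the former. In the comparisons whose numbers do not pair the libraries, the block is a change of setting only. DESeq2 size factors moved the median of all genes by -0.0995 for *Ahr-/-* BMMs with hk S.E. at 20 h against 3 h and by -0.107 for the difference in response, and *Clec4a2* passed there at -0.60 (adjusted p = 0.00411). The cause of these changes was not tested. Depth leaves at least 89 reads behind each value of a member.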
